A study of Mus musculus with 3 samples.

Results

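The genes described here are those of MHC class I antigen presentation and the immunoproteasome: the heavy chain genes H2-K1 and H2-D1, the light chain gene B2m, the peptide loading genes Tap1, Tap2 and Tapbp, the catalytic subunit genes Psmb8, Psmb9 and Psmb10, and the transactivator gene Nlrc5. They were taken by name and matched to Entrez numbers, and all 10 were found among the 17870 genes listed in any library. RNA was sequenced from primary hepatic stellate cells, the vitamin A-storing pericytes of the liver, of male C57BL/6 mice aged 24 weeks. There was 1 library from mice labelled TLR4-/-, 1 from CD44-/- mice and 1 from wild-type mice, and the study asked what the lack of either receptor does to these cells. TLR4 senses lipopolysaccharide of bacteria, and CD44 binds hyaluronan at the cell surface. In all 3 groups, cells were obtained with collagenase and pronase and a Nycodenz gradient, and macrophages were removed with beads against CD11b. The cells were then grown for 3 days with 10% serum, followed by 24 h without it. The sources used here do not give the knockout alleles or say whether animals were pooled.

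MHC class I molecules show peptides from inside the cell to CD8 T cells. The proteasome cuts proteins into peptides, and under interferon-gamma its 3 catalytic subunits Psmb5, Psmb6 and Psmb7 are replaced in newly made particles by Psmb8, Psmb9 and Psmb10, which gives the immunoproteasome. The transporter TAP, made of Tap1 and Tap2, carries the peptides into the endoplasmic reticulum, where tapasin, the product of Tapbp, holds the waiting heavy chain and beta-2-microglobulin, the product of B2m. Nlrc5 acts in the nucleus on a composite promoter element shared by class I genes. Liver stellate cells have been described as able to present antigen.

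Of the 10 genes, 7 lie on mouse chromosome 17 in the major histocompatibility complex, Psmb10 and Nlrc5 on chromosome 8 and B2m on chromosome 2 (GRCm38). Psmb9, Tap1, Psmb8 and Tap2 form 1 block of 34292 bases (chromosome 17, 34182030 to 34216321). In it Psmb9 and Tap1 are read in opposite directions from starts 225 bases apart. The RefSeq promoter table of GRCm38.p6 had entries for 8 of the 10 genes, all but Tap2 and Nlrc5. The sequences shown are the whole interval between Tap1 and Psmb9, because both genes begin at its ends, the proximal promoter of B2m, and those of H2-K1 and H2-D1, because the levels of these chains are set against each other below. They end at the last base before the start in that table, which for H2-K1 lies inside the annotated gene span. Capitals mark matches on either strand to the interferon response element (GAAA, any 2 bases, GAAA), the STAT site (TTC, any 3 bases, GAA), the kappa B site (GGGA, any 2 bases, TTCC), the NF-Y box CCAAT or the site alpha core TGACGC.
Tap1 and Psmb9 interval, GRCm38.p6 chr17:34187331-34187555, plus strand (the direction of Tap1): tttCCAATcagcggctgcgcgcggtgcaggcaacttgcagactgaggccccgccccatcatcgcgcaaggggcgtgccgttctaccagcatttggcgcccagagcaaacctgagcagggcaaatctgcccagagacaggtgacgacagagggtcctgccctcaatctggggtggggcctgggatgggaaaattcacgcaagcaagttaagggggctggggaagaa
B2m, GRCm38.p6 chr2:122147537-122147686, plus strand: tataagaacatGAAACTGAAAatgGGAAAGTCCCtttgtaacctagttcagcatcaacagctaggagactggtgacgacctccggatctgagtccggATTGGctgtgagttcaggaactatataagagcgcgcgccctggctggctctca
H2-K1, GRCm38.p6 chr17:34000348-34000547, minus strand: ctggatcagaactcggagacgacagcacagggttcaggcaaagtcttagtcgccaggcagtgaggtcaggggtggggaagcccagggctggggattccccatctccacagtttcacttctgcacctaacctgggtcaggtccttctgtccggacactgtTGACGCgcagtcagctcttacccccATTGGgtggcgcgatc
H2-D1, GRCm38.p6 chr17:35262894-35263093, plus strand: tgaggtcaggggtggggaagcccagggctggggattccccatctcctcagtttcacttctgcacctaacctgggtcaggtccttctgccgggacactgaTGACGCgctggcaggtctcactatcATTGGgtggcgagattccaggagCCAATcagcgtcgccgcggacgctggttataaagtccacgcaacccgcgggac

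Both heavy chain promoters held TGACGC with the reversed NF-Y box ATTGG 25 bases further on, counted from first base to first base. TGACGC began 41 bases before the annotated start in H2-K1 and 101 bases before it in H2-D1. Laid over each other without gaps, their promoter windows were identical at 176 of 240 bases (73.3%). B2m held GAAACTGAAA 139 bases and GGAAAGTCCC 126 bases before its start. The first matches the interferon element and the second is a kappa B site on the other strand. Over the windows of 300 bases of the 8 genes, the exact letters of the interferon element were found in 1 (B2m). Those of the kappa B site were found in 1 (B2m), of the STAT site in 1 (Psmb8), of the NF-Y box in 6 and TGACGC in 2. Over all 32851 windows in the table, these letters were found in 3.44%, 1.47%, 8.30%, 37.4% and 7.40%, in the same order. The NF-Y box of Tap1 and that of Psmb9 are the same bases of the shared interval. These matches describe letters in a window and are not tests of binding. A site written with other letters is missed, so the lack of a match does not show that an element is absent. The stretches ggggattcccc and agtttcacttct, for example, occur in both printed heavy chain sequences and stay unmarked because they do not match exactly.

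The libraries held 23659074 expected counts in TLR4-/- labelled cells, 21460725 in CD44-/- cells and 24078669 in wild-type cells. Tlr4 stood at 10.9 FPKM in the library labelled TLR4-/-, against 15.8 FPKM in wild type, a ratio of 0.693 (95% interval 0.639 to 0.752), so its level does not by itself settle that genotype. Cd44 stood at 2.57 FPKM in CD44-/- cells, against 17.2 FPKM in wild type. FPKM, the authors' value, divides the fragments of a gene by its length and by the library's total. With 1 library per genotype there is no replicate check and no test. Ratios are ratios of FPKM, and their 95% intervals are exact binomial intervals on rounded expected counts that cover counting error only. Of 12 stellate cell markers, 12 were measured in each comparison. In TLR4-/- labelled against wild-type cells, 10 lay below 0, with a median log2 ratio of FPKM + 1 of -0.36, and 2 were at least 2-fold lower on that scale. Those were Colec11, at 14.05 FPKM against 94.4 FPKM, and the activation marker Acta2, at 81.5 FPKM against 235 FPKM. In CD44-/- against wild-type cells, 8 lay above 0, with a median of 0.20, and 1 was at least 2-fold lower, the collagen gene Col1a1, at 204.95 FPKM against 588 FPKM. Between TLR4-/- labelled and CD44-/- cells, Ngfr and Colec11 were at least 2-fold lower, and the median was -0.52. Lrat, which stores vitamin A as esters, stood at 150.4 FPKM in TLR4-/- labelled cells, 267 FPKM in CD44-/- cells and 215 FPKM in wild-type cells. The part of these marker differences in the class I levels was not tested. Of 15 macrophage markers, 12 reached 1 FPKM in a library and 1, Timd4, had no listed value in any. A gene with no listed value in a library was taken as 0. Their summed level was 37.2 FPKM in TLR4-/- labelled cells, 546 FPKM in CD44-/- cells and 71.3 FPKM in wild-type cells. Of 12 endothelial markers other than Eng, which was over 380 FPKM in every library, the summed level was 4.89, 20.2 and 69.1 FPKM in the same order. In bulk samples, fewer cells of a type and less RNA per cell cannot be told apart.

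All 10 genes were measured in every library, and their levels came in the same order in each: B2m, H2-D1, H2-K1, Tapbp, Tap2, Psmb10, Psmb8, Tap1, Psmb9 and Nlrc5. B2m exceeded Nlrc5 by 444-fold in TLR4-/- labelled cells, 374-fold in CD44-/- cells and 357-fold in wild-type cells. The library labelled TLR4-/- held the lowest level of each of the 10 genes. CD44-/- held the highest level of 9, and wild type that of Tap1.

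**Figure D1:**
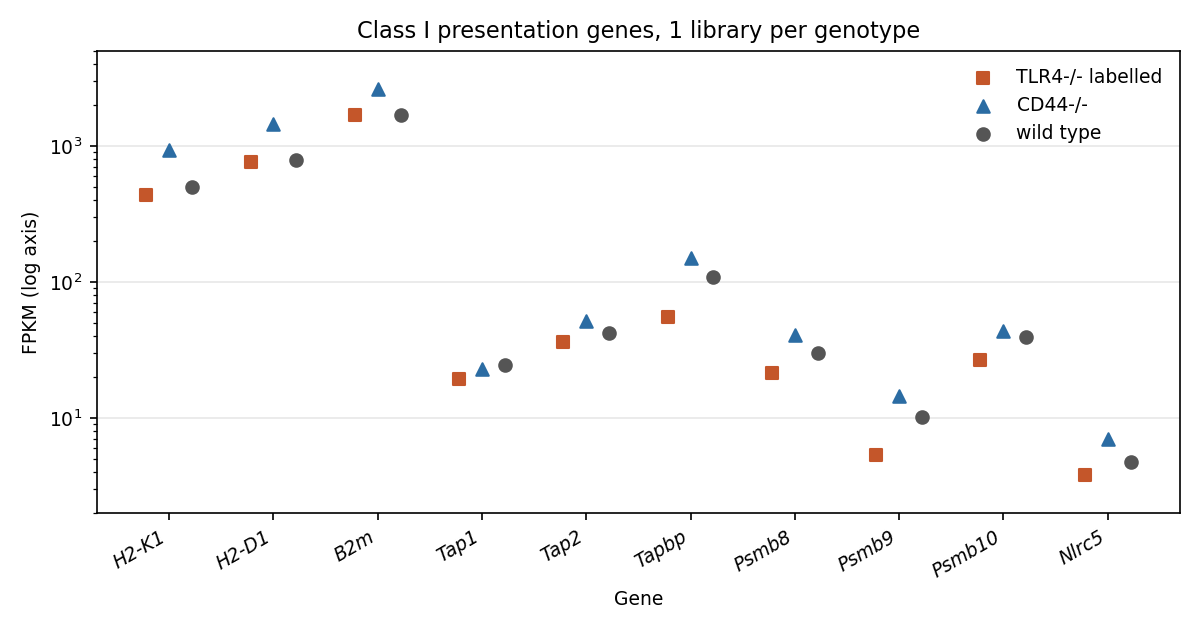
FPKM (log axis) of each of the 10 genes in the TLR4-/- labelled (squares), CD44-/- (triangles) and wild-type (circles) library, 1 library per genotype. B2m, H2-D1 and H2-K1 stand above 400 FPKM in every library and Nlrc5 stands lowest, between 3.77 and 7.01 FPKM.

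Genes that reached an FPKM of 1 in either library were compared, and 2-fold means a log2 ratio of FPKM + 1 of 1 or more in size. Between TLR4-/- labelled and wild-type cells, 0 of the 10 genes passed this size in either direction, where the share of all 12098 genes that passed was 1.04% upward and 2.69% downward. The median log2 ratio of the 10 was -0.30, against 0.03 over all genes, and all 10 lay below 0, as did 45.8% of all genes. Between CD44-/- and wild-type cells, 0 of the 10 passed, where the share of 12247 genes that passed was 2.24% upward and 1.97% downward. The median of the 10 was 0.48, against 0.03 over all genes, and 9 lay above 0, as did 54.7% of all genes. Between TLR4-/- labelled and CD44-/- cells, 3 of the 10 were at least 2-fold lower, Tapbp, Psmb9 and H2-K1, and 0 higher, where 3.44% of 12168 genes were lower by that size and 1.32% higher. The median of the 10 was -0.83, against 0.01 over all genes. The first 2 comparisons share the wild-type library, so they are not independent.

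**Figure D2:**
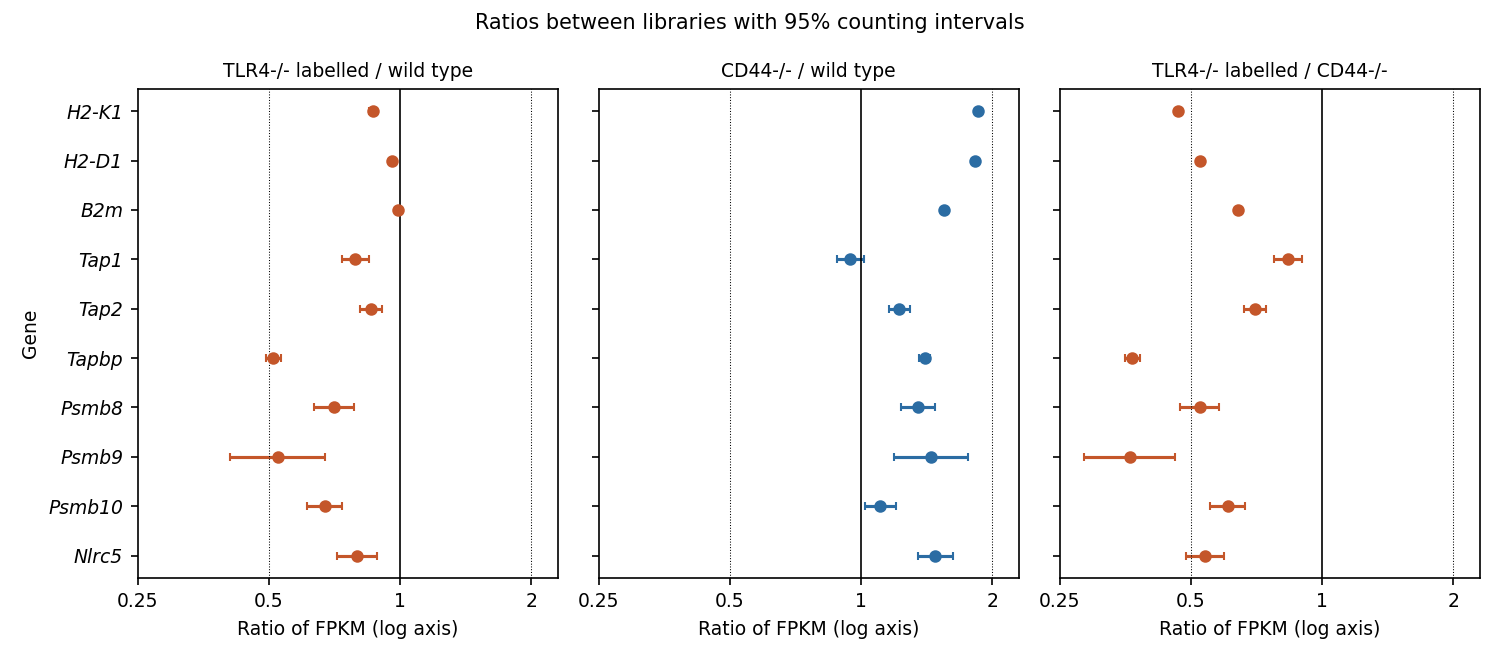
Ratio of FPKM (log axis) of each gene between the libraries named above each panel, with 95% counting intervals (bars, smaller than the point for the abundant genes). Dotted lines mark 2-fold. In the first panel the points run from 0.512 (Tapbp) to 0.990 (B2m), and in the second from 0.946 (Tap1) to 1.86 (H2-K1).

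The heavy chains, which bind the peptide and are read by T cells, were nearly level between TLR4-/- labelled and wild-type cells and about equally higher in CD44-/- cells. H2-K1 stood at 434.6 FPKM in TLR4-/- labelled cells, 930.5 FPKM in CD44-/- cells and 500.7 FPKM in wild-type cells. H2-D1 stood at 756 FPKM, 1439 FPKM and 789 FPKM in the same order. In both genes CD44-/- stands well above the other libraries, which lie close together. The ratio of TLR4-/- labelled to wild-type cells was 0.868 (0.850 to 0.886) for H2-K1 and 0.958 (0.943 to 0.973) for H2-D1. The ratio of CD44-/- to wild-type cells was 1.86 (1.83 to 1.89) for H2-K1 and 1.82 (1.80 to 1.85) for H2-D1. Among all genes measured in that comparison, 2.61% had a higher log2 ratio than H2-K1 and 2.74% a higher one than H2-D1.

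B2m, the small chain that every class I molecule needs at the surface, was among the most abundant RNAs of these cells. It stood at 1675 FPKM in TLR4-/- labelled cells, 2619 FPKM in CD44-/- cells and 1692 FPKM in wild-type cells, ranks 13, 6 and 11 among the genes listed. Its ratio to wild type was 0.990 (0.975 to 1.005) in TLR4-/- labelled cells, an interval that includes 1, and 1.55 (1.53 to 1.57) in CD44-/- cells. The sum of H2-K1 and H2-D1 per B2m, in FPKM, was 0.711 in TLR4-/- labelled cells, 0.905 in CD44-/- cells and 0.762 in wild-type cells. The heavy chains stood further above wild type in CD44-/- cells than the light chain did.

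Reads are shared among class I heavy chains, and their expected counts are estimates for this reason. A deposited count was whole, within 0.005, in all 3 libraries for 5 of the 10 genes (B2m, Psmb8, Psmb9, Psmb10 and Nlrc5) and for 77.3% of 12371 measured genes. Of stretches of 50 bases along the longest GENCODE M21 transcript, 8.79% of those of H2-K1 and 14.1% of those of H2-D1 also occurred in another listed gene. The share was 0 for B2m, the 3 Psmb genes and Nlrc5, and at most 0.878% for Tap1, Tap2 and Tapbp. At 100 bases the shares were 0 for H2-K1 and 4.64% for H2-D1. The sources used here do not give the read length. The counts of Tap1 and Tap2 were not whole, but their sum was, at 3470 in TLR4-/- labelled cells, 4213 in CD44-/- cells and 4257 in wild-type cells, and the stretches these genes share with any other listed gene were shared with each other. Scaled to the library totals, the ratio of this sum to wild type was 0.830 (0.793 to 0.868) in TLR4-/- labelled cells. In CD44-/- cells it was 1.11 (1.06 to 1.16). Summed over 24 class I heavy chain genes, CPM (reads scaled to the library total) stood at 2577 in TLR4-/- labelled cells, 4938 in CD44-/- cells and 2855 in wild-type cells. The ratio to wild type of this sum was 0.903 (0.893 to 0.913) in TLR4-/- labelled cells and 1.73 (1.71 to 1.75) in CD44-/- cells.

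Other class I heavy chain genes are called non-classical, and several serve as ligands of innate or restricted T cell receptors. Of 24 such entries, 22 matched a gene and 12 reached 1 FPKM in a library. In TLR4-/- labelled against wild-type cells, 0 of 12 were at least 2-fold higher and 2 lower, with a median log2 ratio of -0.16. In CD44-/- against wild-type cells, 2 were at least 2-fold higher and 2 lower, with a median of 0.40. The 2 higher ones were H2-T23, the Qa-1 chain that presents leader peptides of other class I molecules, and H2-Q8. H2-T23 stood at 50.7 FPKM in TLR4-/- labelled cells, 98.2 FPKM in CD44-/- cells and 41.4 FPKM in wild-type cells. H2-Q8 stood at 21.5, 34.9 and 15.3 FPKM in that order. H2-T23 shares 17.5% of its stretches of 50 bases with other genes, and the share of H2-Q8 was not computed. The counts of neither gene were whole, so both levels carry the uncertainty of shared reads. The most abundant of the group, H2-Q4, stood at 105.9, 202 and 121 FPKM, a ratio of CD44-/- to wild type of 1.67 (1.62 to 1.73), below those of H2-K1 and H2-D1. It shares 18.2% of its stretches of 50 bases with other genes, H2-D1 and H2-K1 among them. Its counts were not whole either.

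The 2 lower ones were the same genes in both comparisons with wild type, H2-T10 and H2-Bl, and both comparisons use the same wild-type library. H2-T10 stood at 6.21 FPKM in TLR4-/- labelled cells and 6.39 FPKM in CD44-/- cells, against 29.2 FPKM in wild-type cells. H2-Bl stood at 0.18 and 0.26 FPKM, against 2.78 FPKM in wild-type cells. These levels came from only 5, 6 and 77 reads after rounding, and the counts were not whole, so H2-Bl is uncertain too. H2-T10 shares 42.7% of its stretches of 50 bases with other genes, mostly with H2-T22, and so is uncertain. H2-T22 stood at 66.2, 82.8 and 72.95 FPKM in TLR4-/- labelled, CD44-/- and wild-type cells. Their summed CPM was 133.7, 163 and 212 in that order, a ratio to wild type of 0.630 (0.603 to 0.659) in TLR4-/- labelled cells and 0.770 (0.737 to 0.804) in CD44-/- cells.

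Among the peptide loading genes, tapasin varied most and the 2 transporter subunits varied least. Tapbp stood at 55.2 FPKM in TLR4-/- labelled cells, 151 FPKM in CD44-/- cells and 107.8 FPKM in wild-type cells. Each library is set apart from the next, and the ratio to wild type was 0.512 (0.492 to 0.533) in TLR4-/- labelled cells and 1.40 (1.36 to 1.44) in CD44-/- cells. Tapbp was 2.73-fold lower (2.63 to 2.84) in TLR4-/- labelled than in CD44-/- cells, and 1.76% of all genes had a lower log2 ratio in that comparison. Tap2 stood at 36.05 FPKM in TLR4-/- labelled cells, 51.5 FPKM in CD44-/- cells and 42.1 FPKM in wild-type cells. Tap1 stood at 19.2, 22.96 and 24.3 FPKM in that order and was the gene that was not higher in CD44-/- cells. Its ratio to wild type there was 0.946 (0.881 to 1.01), an interval that includes 1, while that of Tap2 was 1.22 (1.16 to 1.29). Tapbp per Tap1, in FPKM, was 2.88 (2.70 to 3.07) in TLR4-/- labelled cells, 6.57 (6.21 to 6.94) in CD44-/- cells and 4.44 (4.21 to 4.68) in wild-type cells.

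Chaperones and trimming enzymes serve class I along with many other proteins. Of 15 such genes, 0 were at least 2-fold apart in any of the 3 comparisons. Their median log2 ratio was 0.19 in TLR4-/- labelled and 0.08 in CD44-/- against wild-type cells, and -0.01 between the knockout-labelled libraries. Calr, the calreticulin of the loading complex, stood at 584 FPKM in TLR4-/- labelled cells, 598 FPKM in CD44-/- cells and 608 FPKM in wild-type cells. Pdia3, the disulphide isomerase bound to tapasin, stood at 339, 369 and 333 FPKM. Erap1, which trims peptides inside the endoplasmic reticulum, stood at 27.5, 41.6 and 22.3 FPKM, and its ratio of CD44-/- to wild type was 1.87 (1.77 to 1.97). Tapbpl, the tapasin relative that edits peptides outside the loading complex, stood at 9.24, 13.6 and 13.7 FPKM, a ratio of TLR4-/- labelled to wild type of 0.674 (0.598 to 0.760). Hspa5, a general chaperone of the endoplasmic reticulum, stood at 559, 380 and 310.1 FPKM, highest in TLR4-/- labelled cells.

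The immunoproteasome subunits were lowest in TLR4-/- labelled cells. Psmb8 stood at 21.3 FPKM in TLR4-/- labelled cells, 40.8 FPKM in CD44-/- cells and 30.2 FPKM in wild-type cells. Psmb9 stood at 5.29 FPKM, 14.6 FPKM and 10.09 FPKM in that order, from 98, 245 and 190 reads. Psmb10 stood at 26.4 FPKM, 43.6 FPKM and 39.4 FPKM. For Psmb10 the CD44-/- and wild-type values lie close together and the TLR4-/- labelled value lies apart, while for Psmb8 and Psmb9 the 3 libraries are spread out. The ratio of TLR4-/- labelled to wild-type cells was 0.707 (0.636 to 0.784) for Psmb8, 0.524 (0.407 to 0.672) for Psmb9 and 0.672 (0.613 to 0.736) for Psmb10. The ratio of CD44-/- to wild-type cells was 1.35 (1.23 to 1.48) for Psmb8, 1.45 (1.19 to 1.76) for Psmb9 and 1.11 (1.02 to 1.20) for Psmb10. Psmb9 and Tap1, which begin at opposite ends of the interval printed above, did not keep the same proportion: Tap1 per Psmb9, in FPKM, was 3.63 (2.95 to 4.50) in TLR4-/- labelled cells, 1.57 (1.37 to 1.81) in CD44-/- cells and 2.41 (2.07 to 2.81) in wild-type cells.

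The constitutive subunits stood above wild type in TLR4-/- labelled cells, with ratios of 1.12 (Psmb5), 1.19 (Psmb6) and 1.14 (Psmb7). In CD44-/- cells their ratios were 0.970, 1.08 and 0.962. Psmb5 stood at 148 FPKM in TLR4-/- labelled cells, 129 FPKM in CD44-/- cells and 133 FPKM in wild-type cells. Psmb6 stood at 114, 104.3 and 96.1 FPKM, and Psmb7 at 126, 106.95 and 111 FPKM, in that order. The 3 inducible subunits summed to 13.7% of the 3 constitutive ones in TLR4-/- labelled cells (12.9 to 14.4), 29.1% in CD44-/- cells (27.8 to 30.5) and 23.4% in wild-type cells (22.3 to 24.5). The 3 intervals, scaled from summed reads, do not overlap. Within each library the constitutive RNA exceeded the inducible one in every pair, and the pair of Psmb9 and Psmb6 had the smallest share, 4.64% in TLR4-/- labelled cells, 13.99% in CD44-/- cells and 10.5% in wild-type cells.

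**Figure D3:**
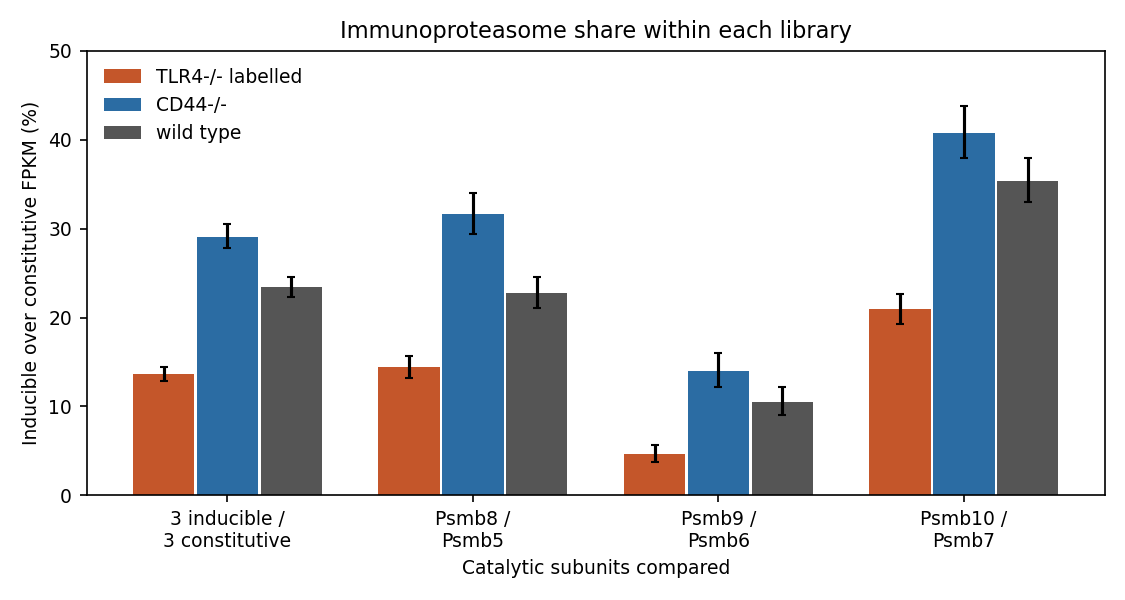
FPKM of inducible over constitutive catalytic subunits, in percent, for the 3 pairs together and for each pair, in the TLR4-/- labelled, CD44-/- and wild-type library (bars in that order), with 95% counting intervals. The share is lowest in TLR4-/- labelled cells in every pair.

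Of the 11 other genes of the 20S core, the barrel that holds the catalytic subunits, 11 lay above 0 in TLR4-/- labelled against wild-type cells, with a median log2 ratio of 0.38. The 20 genes of the 19S regulator, the cap that unfolds substrates, had a median of 0.31 in that comparison, with 17 above 0. In CD44-/- against wild-type cells these medians were 0.13 and -0.01, and 0 of the 31 genes were at least 2-fold apart in either comparison. Psmd11, the 19S gene with the highest log2 ratio of TLR4-/- labelled to wild-type cells (0.65), stood at 100.4 FPKM in TLR4-/- labelled cells. It stood at 64.5 FPKM in CD44-/- cells and 63.5 FPKM in wild-type cells. Psmd8, the most abundant 19S gene, ran the other way, at 141, 121 and 153 FPKM in that order. Its ratio of TLR4-/- labelled to wild-type cells was 0.923 (0.889 to 0.959). Among the activator caps, Psme1 and Psme2, the interferon-inducible subunits of PA28, stood below wild type in TLR4-/- labelled cells and above it in CD44-/- cells. Psme1 stood at 61.8, 93.5 and 69.1 FPKM, and Psme2 at 68.1, 85.4 and 75.1 FPKM, in TLR4-/- labelled, CD44-/- and wild-type cells. Psme3, the nuclear cap, stood at 41.6, 30.2 and 32.2 FPKM in that order.

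Nlrc5, the class I transactivator, was the least abundant of the 10. It stood at 3.77 FPKM in TLR4-/- labelled cells, 7.01 FPKM in CD44-/- cells and 4.74 FPKM in wild-type cells, from 626, 1056 and 801 reads. CD44-/- lies above the other libraries, with a ratio to wild type of 1.48 (1.35 to 1.62), against 0.795 (0.715 to 0.884) in TLR4-/- labelled cells. Ciita, its class II counterpart, had 3 reads in each library. Of 15 genes for factors of class I promoters, 14 reached 1 FPKM in at least 1 library and 0 were at least 2-fold apart in any comparison. Their median log2 ratio was -0.11 in TLR4-/- labelled and 0.08 in CD44-/- against wild-type cells. Irf1, an interferon-induced activator of class I and immunoproteasome genes, stood at 25.3, 34.3 and 31.4 FPKM in TLR4-/- labelled, CD44-/- and wild-type cells. Rfx5, a partner of Nlrc5 on the shared promoter element, stood at 4.41, 6.15 and 5.71 FPKM. Not all factors kept this order, and in CD44-/- against wild-type cells 10 of the 14 lay above 0 and 4 below. Rfxap stood at 7.18, 6.25 and 7.67 FPKM and Rfxank at 12.0, 9.21 and 11.6 FPKM, both lowest in CD44-/- cells. Rela, the most abundant of the list, was highest in wild-type cells, at 42.5, 49.6 and 58.65 FPKM.

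Of 17 genes known to be induced by interferon-gamma, 15 were measured in each comparison. In TLR4-/- labelled against wild-type cells their median log2 ratio was -0.27, with 13 below 0 and 0 at least 2-fold apart. In CD44-/- against wild-type cells it was 0.66, with 15 above 0 and 3 at least 2-fold higher, Gbp6, Iigp1 and Cxcl10. Gbp2, a guanylate-binding protein, stood at 15.1 FPKM in TLR4-/- labelled cells, 48.9 FPKM in CD44-/- cells and 29.4 FPKM in wild-type cells. Serping1, the C1 inhibitor, stood at 288, 624 and 419 FPKM. Genes known to be induced by type I interferon had medians of -0.12 over 16 measured and 0.45 over 17 measured in these comparisons. Within them Ifit3 was at least 2-fold lower in TLR4-/- labelled cells, at 19.1 FPKM against 48.3 in wild type, and Xaf1 at least 2-fold higher in CD44-/- cells, at 27.5 FPKM against 5.18 in wild type. Ifng and Ifnb1, the cytokine genes, had no listed value in any library. The receptor gene Ifngr1 stood at 31.7, 32.0 and 42.1 FPKM, highest in wild-type cells, and Ifnar2 at 78.1, 148 and 83.2 FPKM, highest in CD44-/- cells.

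**Figure D4:**
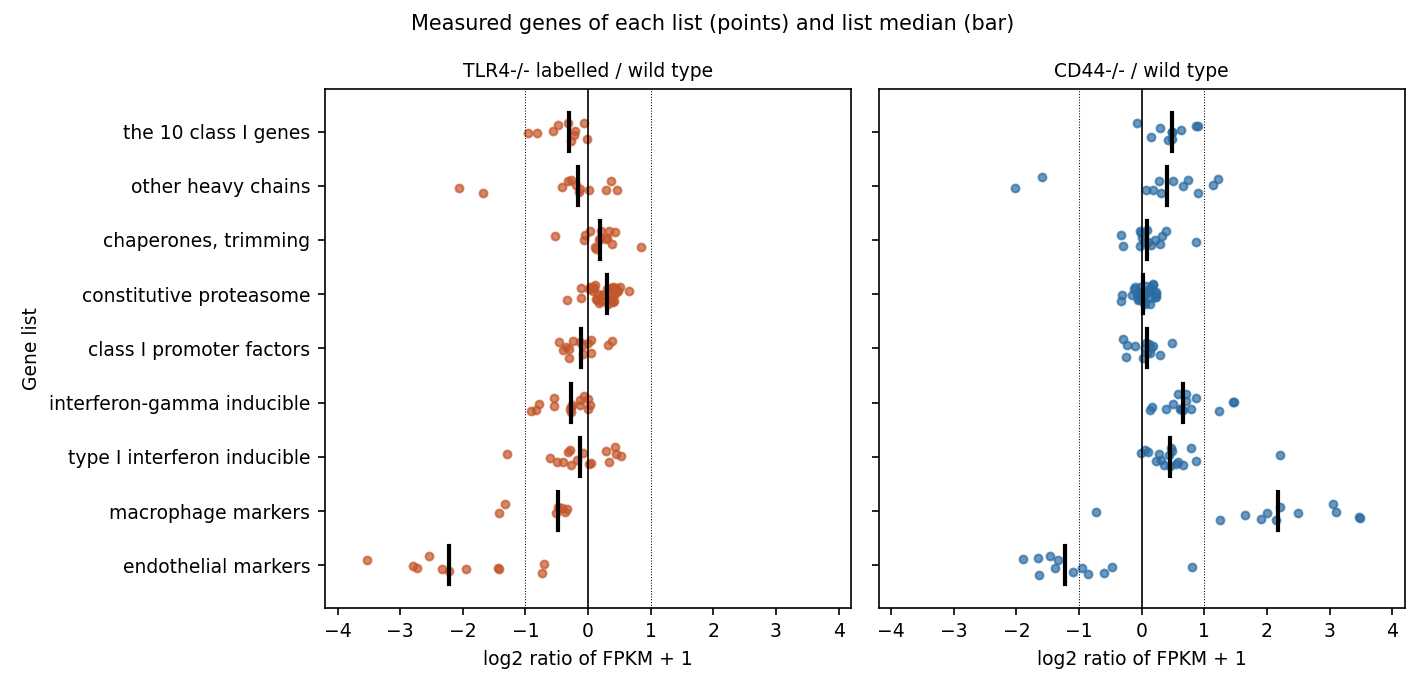
log2 ratio of FPKM + 1 of the measured genes of each list (points, spread vertically for legibility) and the list median (black bar), for TLR4-/- labelled (left) and CD44-/- (right) over wild-type cells, which share the wild-type library. The 10 class I genes have medians of -0.30 and 0.48, and the constitutive proteasome 0.31 and 0.02.

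Markers of other cell types also differed between the libraries. In CD44-/- against wild-type cells, 11 of the 12 macrophage markers measured exceeded the 2-fold size upward, and the pan-leukocyte gene Ptprc stood at 1.87 FPKM against 0.20. Lyz2, the macrophage lysozyme, stood at 362 FPKM in CD44-/- cells, against 31.4 FPKM in wild-type cells. In TLR4-/- labelled against wild-type cells, 2 of 7 measured macrophage markers and 9 of 11 measured endothelial markers were at least 2-fold lower. In CD44-/- against wild-type cells, 7 of 12 measured endothelial markers were at least 2-fold lower and 11 of 12 lay below 0. The hepatocyte marker Alb, the 1 of 8 that was measured, stood at 1.22 FPKM in TLR4-/- labelled cells, 0.16 FPKM in CD44-/- cells and 9.14 FPKM in wild-type cells, at least 2-fold lower in both comparisons with wild type. Of 5 cholangiocyte markers 3 were measured, and Krt19 and Spp1 were at least 2-fold lower in CD44-/- than in wild-type cells. The remaining measured marker lay above 0 in that comparison, at a log2 ratio of 0.83. Spp1, which other liver cells also express, stood at 126 FPKM in TLR4-/- labelled cells, 57.4 FPKM in CD44-/- cells and 125 FPKM in wild-type cells. Endothelial cells and macrophages express class I molecules, and the part of any of these cells in the class I levels was not tested. Of 13 T, NK and B cell markers, 0 reached 1 FPKM in any library, and Trac, Nkg7, Klrb1c, Ncr1 and Ms4a1 were among those with no listed value in any. The dendritic cell markers Flt3, Cd209a and Ccr7 also had no listed value in any, while Itgax, which macrophages share, stood at 0.10 FPKM in TLR4-/- labelled cells, 8.87 FPKM in CD44-/- cells and 1.15 FPKM in wild-type cells. Of 8 dendritic cell markers 2 were measured. The one besides Itgax stood at 6.64 FPKM in TLR4-/- labelled and 5.77 FPKM in wild-type cells. Its log2 ratio to wild type was 0.17 in TLR4-/- labelled cells and -0.18 in CD44-/- cells. Class II genes stayed low in every library. Cd74, their invariant chain, had no listed value in TLR4-/- labelled cells and stood at 3.95 FPKM in CD44-/- cells and 0.71 FPKM in wild-type cells. H2-Ab1 stood at 0.14, 0.59 and 0.21 FPKM in that order.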

How the data were processed

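Per the labels, total RNA of 3 libraries, 1 per genotype, was prepared with BGISEQ-500 protocols; the series text instead speaks of triplicates and Illumina instruments. Per the submitters' processing notes, RSEM and the mm10 build were used; the sources used here give no version, aligner or strand handling. The authors deposited for each gene an expected count (an estimated read number), an FPKM value and a transcript length; the lowest FPKM listed is 0.01, and a gene with no listed value was set to 0. Ratios, lists and intervals were computed with Python 3.11.15 and scipy 1.17.1, and TMM factors with edgeR 4.0.16 on rounded expected counts. Symbols came from the RefSeq table of GRCm38.p6, which named 17824 of 17870 genes. Of 251 list entries in 25 lists, 249 matched. Intervals are 95% Clopper-Pearson intervals and cover counting error only.

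The text may name all 10 genes and up to 6 genes per pathway list by highest FPKM plus those at least 2-fold apart. It may also name up to 4 markers per cell type plus markers with no listed value, and the 6 genes of most similar pattern. Fewer are given here. Erap1, Tapbpl, Rfx5, Rfxap, Rfxank, Ciita, H2-Ab1, Ifng, Ifnb1, Ptprc, Colec11, Acta2 and Ngfr fall outside this rule and were chosen after their values were seen. Some listed genes are not reported here. The genes and lists were chosen with earlier results of these data known. Steps were tested on simulated data. Alternatives were TPM, TMM-scaled CPM, median-of-ratios scaling, a stricter filter (FPKM 5), the unfiltered table, a smaller pseudocount (0.1), summed heavy chain reads and each catalytic pair alone.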

Additional observations from a re-analysis of the deposited data

How the results depend on the processing

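The number of the 10 genes at least 2-fold apart, 0, 0 and 3 in the 3 comparisons, was the same under TPM, TMM-scaled CPM, median-of-ratios scaling, the unfiltered table, a pseudocount of 0.1 and a filter at FPKM 5. Under the other pseudocount and scalings the median log2 ratio ran from -0.36 to -0.32 in TLR4-/- labelled over wild-type cells, 0.46 to 0.51 in CD44-/- over wild-type cells and -0.90 to -0.82 in TLR4-/- labelled over CD44-/- cells. Of 90 ratios recomputed under the 3 scalings, 0 changed side of 1 and 9 left their main counting interval. Among those 9 was B2m in TLR4-/- labelled over wild-type cells, whose main interval includes 1. Its ratio was 0.973 under median-of-ratios scaling and 0.970 under TMM-scaled CPM. With the 5 genes of whole counts alone, an alternative chosen after seeing the data, the median of TLR4-/- labelled over wild-type cells was -0.48 and the count between TLR4-/- labelled and CD44-/- cells was 1; fewer genes enter. Over all genes, the number at least 2-fold higher and lower in TLR4-/- labelled than wild-type cells was 126 and 326, against 214 and 504 with the pseudocount of 0.1, 199 and 499 with TPM and 75 and 183 with the filter at FPKM 5. For CD44-/- and wild-type cells these counts were 274 and 241, against 391 and 386, 398 and 378, and 167 and 143. For TLR4-/- labelled and CD44-/- cells they were 161 and 418, against 280 and 604, 255 and 602, and 104 and 265.

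The inducible share of catalytic subunits, in percent of TLR4-/- labelled, CD44-/- and wild-type cells, was 17.4, 36.4 and 29.7 in reads not scaled by length, 4.64, 13.99 and 10.5 for Psmb9 over Psmb6 alone, and 20.9, 40.7 and 35.4 for Psmb10 over Psmb7 alone. For Psmb8 over Psmb5 alone it was 31.6 in CD44-/- cells, with 14.4 and 22.7 in TLR4-/- labelled and wild-type cells. No paired analysis was possible because each genotype has 1 library. The comparison of CD44-/- and wild-type cells does not use the library labelled TLR4-/-. Precision is limited by the single library, and by 98 reads for Psmb9 in TLR4-/- labelled cells.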

Other observations

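Tshz2, Csad, Ssbp4, Hs3st3b1 and Ets2 were among the 6 genes whose pattern was most like that of the 10 class I genes, of 8227 with FPKM of at least 5 in every library. Likeness was the Euclidean distance over the 3 libraries between log2 values of FPKM + 1 centred on their mean, set against the mean of the 10 genes. Tshz2 was at a distance of 0.02, with 14.45 FPKM in TLR4-/- labelled cells, 26.4 FPKM in CD44-/- cells and 19.1 FPKM in wild-type cells. Within the 10 genes, Psmb8 and Nlrc5 lay nearest their own mean pattern, at 0.07 and 0.09, and Tap1 and Tapbp farthest, at 0.47 each. With 3 libraries, many genes can be near any pattern.

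Between Tapbp and H2-D1 on chromosome 17 (33919478 to 35267497), 54 other measured genes had a median log2 ratio of -0.15 in TLR4-/- labelled over wild-type cells, with 34 below 0, and 55 had a median of 0.01 in CD44-/- over wild-type cells, with 29 above 0. Of 7 class I-like genes, whose products share the class I fold, 5 were measured and 0 were at least 2-fold apart in any comparison. Their median log2 ratio was -0.13 in TLR4-/- labelled and 0.19 in CD44-/- over wild-type cells, and they did not all lie on the same side. Fcgrt, the neonatal antibody receptor that also pairs with beta-2-microglobulin, stood at 101 FPKM in TLR4-/- labelled cells, 138 FPKM in CD44-/- cells and 120.4 FPKM in wild-type cells. Hfe, the regulator of iron uptake, stood at 13.0, 23.3 and 14.3 FPKM, and Mr1, which presents vitamin B metabolites, at 10.6, 15.5 and 14.03 FPKM in that order. Procr, the endothelial protein C receptor, ran the other way, at 75.95, 53.2 and 66.2 FPKM, with ratios to wild type of 1.15 in TLR4-/- labelled cells and 0.804 in CD44-/- cells. Cd1d1, which presents lipids, was lowest in wild type, at 6.12, 6.47 and 4.56 FPKM, with ratios of 1.34 and 1.42.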
